A study of Pongo abelii with 8 samples.

Results

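GATA2, GATA3, GATA4, GATA6, TFAP2A, TFAP2C, EOMES, HAND1, APOA1 and KDR are genes that mark early embryonic lineages, and their transcripts were followed here in dermal fibroblasts of the Sumatran orangutan (Pongo abelii) and in induced pluripotent stem cells (iPSCs) made from them. Every probe set of the human expression array whose annotation gave a single gene symbol, and that symbol 1 of these 10 genes, was taken. This gave 17 of the 22277 probe sets on the array and covered 9 of the 10 genes. No probe set carried the symbol EOMES alone, and EOMES, a T-box factor of early mesendoderm, was not analysed here.

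The study asked whether orangutan skin fibroblasts carrying retroviral human OCT4, SOX2, KLF4 and c-MYC had acquired the expression profile of pluripotent cells. The 6 iPSC arrays came from 3 colonies of KB10973, a male aged 29 years, and 3 colonies of KB10460, a female aged 43 years. The 2 fibroblast arrays came from 1 dermal culture of each of these animals, both labelled as healthy controls, and these cultures had not been given the reprogramming genes. Each array therefore held the RNA of a colony or a culture, so that the spread among colonies is not a spread among animals, and donor, sex and age cannot be told apart. Valproic acid was present during reprogramming. The picked colonies were expanded on inactivated mouse embryonic fibroblasts, and the arrays were not examined here for RNA of these mouse cells. The labels differ on the medium of the fibroblasts, since the growth protocol gives them fetal bovine serum and the design text gives them the serum replacement used for the iPSCs. Medium and cell type cannot be told apart.

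GATA factors are zinc finger proteins that bind the GATA motif and activate lineage programs, with GATA4 and GATA6 acting in endoderm and heart, and GATA2 and GATA3 in blood, trophoblast and ectoderm. TFAP2A and TFAP2C encode AP-2 transcription factors of surface ectoderm, neural crest, trophoblast and germ cells. Pluripotent cultures usually hold some cells that leave the pluripotent state, and the transcripts of such regulators, or of their products in yolk sac and vessel precursors, are a common readout of that process.

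Expression was given as a log2 value from the robust multi-array average (RMA), in which 1 unit is a doubling of signal. The median value of an array lay between 3.74 and 3.82. Pairs of iPSC arrays correlated at r of 0.986 to 0.994 over all probe sets, the fibroblast arrays at 0.973, and iPSC with fibroblast arrays at 0.842 to 0.885. Of 7 iPSC markers, POU5F1, TDGF1 and SALL4 had no probe set with that symbol alone. The other 4, LIN28A, DNMT3B, SOX2 and NANOG, were all higher in the iPSCs. Their mean level was 8.35 to 8.74 per iPSC array and 3.76 to 4.07 per fibroblast array. SOX2 was also given by retrovirus, and transcripts of the vector and of the cells were not told apart here. Of 8 fibroblast markers 7 were lower in the iPSCs, with a mean level of 4.62 to 5.14 per iPSC array and 9.09 to 9.40 per fibroblast array, while THY1 was higher in the iPSCs. The probes were designed on human transcripts, and a mismatch to the orangutan sequence can lower the signal of a probe set in every array. Levels are therefore compared between arrays at a given probe set, and not between genes.

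GATA6, APOA1 and KDR were higher in the iPSCs, and GATA3, TFAP2A and TFAP2C were lower. GATA2, GATA4 and HAND1 had no probe set that passed the test. A probe set was called where limma gave an adjusted p under 0.05 (Benjamini-Hochberg, over all probe sets) and the fold was above 1.5. Of the 17 probe sets 4 were called higher (23.5%) and 5 lower (29.4%), against 12.2% and 9.6% of all probe sets on the array. The remaining 8 were not called, and the median log2 difference of the 17 was −0.09, beside −0.01 over all probe sets. The groups did not overlap at 9 of the 17 probe sets, with the iPSCs above both fibroblast cultures at 4 and below both at 5. Over the whole array 38% of probe sets had no overlap, 19.8% with the iPSCs above and 18.2% with them below. In these bulk samples, fewer cells of a type and less RNA per cell cannot be told apart.

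**Figure D1:**
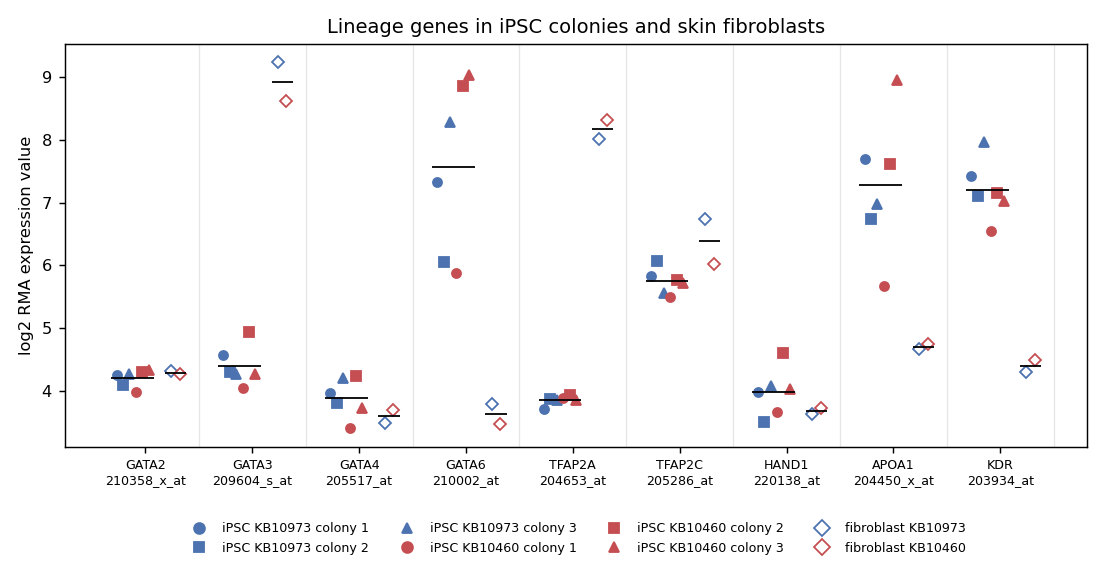
Log2 RMA value of 9 lineage genes on each array, at the probe set with the highest mean. Filled symbols are the 6 iPSC colonies, open symbols the 2 fibroblast cultures, and the bars are group means. GATA6 and APOA1 spread over more than 3 log2 units among the colonies, and GATA3 and TFAP2A are high in the fibroblasts alone.

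GATA6, which drives the primitive endoderm of the mouse blastocyst and acts again in heart and gut, was among the genes that rose most. At its single probe set, 210002_at, the KB10973 colonies had levels of 7.33, 6.05 and 8.28 and the KB10460 colonies 5.88, 8.86 and 9.03, against 3.79 in KB10973 fibroblasts and 3.47 in KB10460 fibroblasts. All colonies lay above both fibroblast cultures, and colony 1 of KB10460 and colony 2 of KB10973 were well below the other colonies. The mean was 7.57 ± 1.38 in iPSCs (SD, n = 6) and 3.63 ± 0.23 in fibroblasts (SD, n = 2). The difference was 3.94 (SE 0.85) on the log2 scale, a 15.3-fold rise, with a limma adjusted p of 0.0067. It was 3.43 within KB10973 and 4.45 within KB10460. Without the fibroblast array of KB10460 the difference was 3.78 with an adjusted p of 0.052 in limma, and the call was lost.

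APOA1, the main protein of high-density lipoprotein and a product of yolk sac endoderm, liver and gut, also rose. At probe set 204450_x_at the KB10973 colonies had levels of 7.70, 6.74 and 6.98 and the KB10460 colonies 5.67, 7.62 and 8.95, against 4.66 in KB10973 fibroblasts and 4.75 in KB10460 fibroblasts. At 217073_x_at the levels were 7.53, 6.85 and 6.81 in KB10973 colonies and 5.59, 7.53 and 8.98 in KB10460 colonies, against 4.26 and 4.85 in the fibroblasts of KB10973 and KB10460. The groups did not overlap at either probe set, and colony 1 of KB10460 was the lowest and colony 3 of that animal the highest colony at both. The difference was 2.57 (SE 0.68), a 5.93-fold rise with a limma adjusted p of 0.018, at 204450_x_at, and 2.66 (SE 0.70), a 6.32-fold rise with an adjusted p of 0.018, at 217073_x_at. Both probe sets are of a class (suffix _x_at) that may bind other transcripts, and they are not independent readings, since they differed by at most 0.40 on any array. Without the fibroblast array of KB10460 or of KB10973 the difference at 204450_x_at was 2.62 or 2.52, and at 217073_x_at it was 2.95 or 2.37. Both calls were lost in these fits, which leave 1 fibroblast array. With array weights the call at 204450_x_at was also lost, at a limma adjusted p of 0.052.

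KDR, the vascular endothelial growth factor receptor of endothelial and early mesodermal cells, rose with less spread. At probe set 203934_at the KB10973 colonies had levels of 7.42, 7.11 and 7.96 and the KB10460 colonies 6.55, 7.16 and 7.02, against 4.30 in KB10973 fibroblasts and 4.49 in KB10460 fibroblasts. Every colony exceeded both fibroblast cultures by more than 2 log2 units. The mean was 7.20 ± 0.47 in iPSCs (SD, n = 6) and 4.40 ± 0.13 in fibroblasts (SD, n = 2), a difference of 2.81 (SE 0.30) with a limma adjusted p of 9.2e-05. The difference was 3.20 within KB10973 and 2.42 within KB10460, and the call held in all 18 alternative settings.

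GATA3, a factor of T cells, trophoblast and skin, showed the opposite pattern and fell at all 3 of its probe sets. At 209604_s_at the KB10973 colonies had levels of 4.57, 4.31 and 4.28 and the KB10460 colonies 4.04, 4.93 and 4.27, against 9.24 in KB10973 fibroblasts and 8.61 in KB10460 fibroblasts. The groups were separated by a wide gap, and colony 2 of KB10460 was the highest colony. The difference of −4.53 (SE 0.23) corresponds to a level 23.0-fold higher in fibroblasts, with a limma adjusted p of 1.0e-06, and held in all 18 alternatives.

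The other GATA3 probe sets gave much smaller differences in the same direction. At 209603_at the levels were 3.16 to 3.52 in iPSCs (median 3.46), against 4.42 in KB10973 fibroblasts and 4.15 in KB10460 fibroblasts, a difference of −0.86 (SE 0.12) with a limma adjusted p of 0.00043. At 209602_s_at they were 2.78 to 3.03 in iPSCs (median 2.86), against 3.97 in KB10973 fibroblasts and 3.42 in KB10460 fibroblasts, a difference of −0.82 with a limma adjusted p of 0.0015. No iPSC array reached a fibroblast array at either of them. Without the fibroblast array of KB10973 the difference at 209602_s_at was −0.54 (limma adjusted p 0.0074), which is under the fold threshold, and the call was lost.

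TFAP2A, an AP-2 factor of neural crest and epidermis, was read by 3 probe sets that did not behave alike. At 204653_at the KB10973 colonies had levels of 3.71, 3.87 and 3.85 and the KB10460 colonies 3.89, 3.93 and 3.85, against 8.02 in KB10973 fibroblasts and 8.32 in KB10460 fibroblasts. The colonies lay within 0.21 of each other and far below both fibroblast cultures. The mean was 3.85 ± 0.07 in iPSCs (SD, n = 6) and 8.17 ± 0.21 in fibroblasts (SD, n = 2), a difference of −4.32 (SE 0.10) with a limma adjusted p of 3.9e-09, and the call held in all 18 alternatives. This corresponds to a level 19.9-fold higher in fibroblasts.

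The remaining TFAP2A probe sets did not pass the test. At 204654_s_at the levels were 3.13 to 3.29 in iPSCs, with a mean of 3.22 ± 0.06 (SD, n = 6), and 3.43 ± 0.01 in fibroblasts (SD, n = 2). Every colony lay below both fibroblast cultures there, but the difference of −0.21 (SE 0.07) had a limma adjusted p of 0.056. At 210669_at the difference was −0.02 (SE 0.09) with a limma adjusted p of 0.91. These probe sets were low on every array, also in the fibroblasts, where 204653_at stood at 8.02 (KB10973) and 8.32 (KB10460). The part of a mismatch of the human probes in their low signal was not tested.

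TFAP2C, the AP-2 factor of trophoblast and primordial germ cells, had a borderline difference. At 205286_at the KB10973 colonies had levels of 5.84, 6.08 and 5.56 and the KB10460 colonies 5.49, 5.77 and 5.73, against 6.74 in KB10973 fibroblasts and 6.03 in KB10460 fibroblasts. The groups overlapped, since colony 2 of KB10973 exceeded the KB10460 fibroblasts. The difference of −0.64 (SE 0.20) had a limma adjusted p of 0.038, and the call was lost in 10 of 18 alternatives. Without the fibroblast array of KB10973 it was −0.28 with an adjusted p of 0.36 in limma, and without that of KB10460 it was −0.99 with an adjusted p of 0.0066. At 205287_s_at the difference was −0.22 (SE 0.16) with a limma adjusted p of 0.39.

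GATA2, a factor of blood progenitors and trophoblast, had 3 probe sets and no call. At 209710_at the KB10973 colonies had levels of 3.73, 3.56 and 4.04 and the KB10460 colonies 3.79, 4.05 and 5.10, against 4.61 in KB10973 fibroblasts and 4.35 in KB10460 fibroblasts. Colony 3 of KB10460 alone exceeded the fibroblasts, and the difference was −0.43 (SE 0.35) with a limma adjusted p of 0.42. Without that colony it was −0.64 with a limma adjusted p of 0.015, which is a call. At 210358_x_at and 207954_at the differences were −0.09 and −0.04, with limma adjusted p of 0.62 and 0.85.

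GATA4, which acts beside GATA6 in endoderm and heart, had levels at 205517_at of 3.97, 3.81 and 4.20 in KB10973 colonies and 3.40, 4.23 and 3.72 in KB10460 colonies, against 3.50 in KB10973 fibroblasts and 3.70 in KB10460 fibroblasts. HAND1, a basic helix-loop-helix factor of heart and, in mouse, trophoblast giant cells, had levels at 220138_at of 3.99, 3.50 and 4.07 in KB10973 colonies and 3.67, 4.60 and 4.04 in KB10460 colonies, against 3.63 in KB10973 fibroblasts and 3.73 in KB10460 fibroblasts. In both genes the colonies overlapped the fibroblasts, and colony 2 of KB10460 was the highest. The differences were 0.29 (SE 0.21) for GATA4 and 0.30 (SE 0.24) for HAND1, with limma adjusted p of 0.36 and 0.44.

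**Figure D2:**
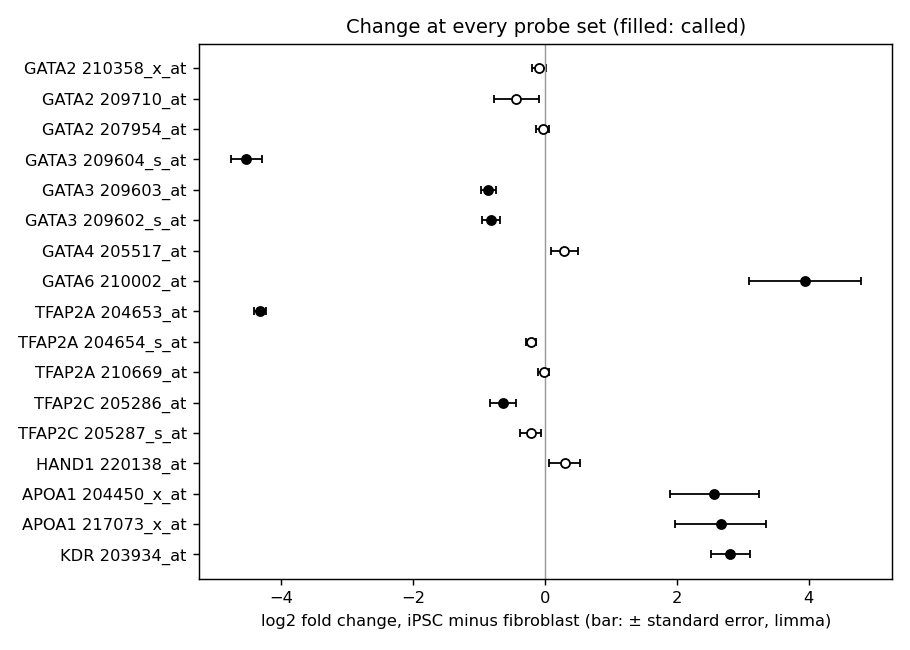
Log2 difference, iPSC minus fibroblast, at each of the 17 probe sets, with bars of ± 1 standard error from limma. Filled points passed the fold and adjusted p thresholds, with GATA6, APOA1 and KDR to the right of 0 and GATA3, TFAP2A and TFAP2C to the left.

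The colonies differed from each other more at some of these genes than at most of the array. The genes were chosen with earlier results of these data known, so the shares given here cannot serve as a test. The SD over the 6 colonies had a median of 0.23 for the 17 probe sets and 0.13 for all probe sets, and 6 of the 17 lay above the 95th percentile of all probe sets, at an SD of 0.36. These were GATA6, both APOA1 probe sets, which are not independent readings, GATA2 at 209710_at, KDR and HAND1. GATA6 and APOA1 (204450_x_at), both with an SD at the 99.9th percentile, spanned 8.90-fold and 9.71-fold between the lowest and the highest colony. KDR stood at the 97.7th and HAND1 at the 95.7th percentile, while TFAP2A at 204653_at stood at the 13.4th. The SD of GATA6 stayed between 1.23 and 1.54, and that of APOA1 at 204450_x_at between 0.82 and 1.22, when each colony was left out in turn. The GATA2, KDR and HAND1 probe sets each dropped under 0.36 when a particular colony was left out. The SD of GATA2 at 209710_at was 0.55 over all colonies and 0.21 without colony 3 of KB10460. That of KDR was 0.47 over all colonies and 0.32 without colony 3 of KB10973, and that of HAND1 was 0.38 over all colonies, 0.26 without colony 2 of KB10460 and 0.34 without colony 2 of KB10973.

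**Figure D3:**
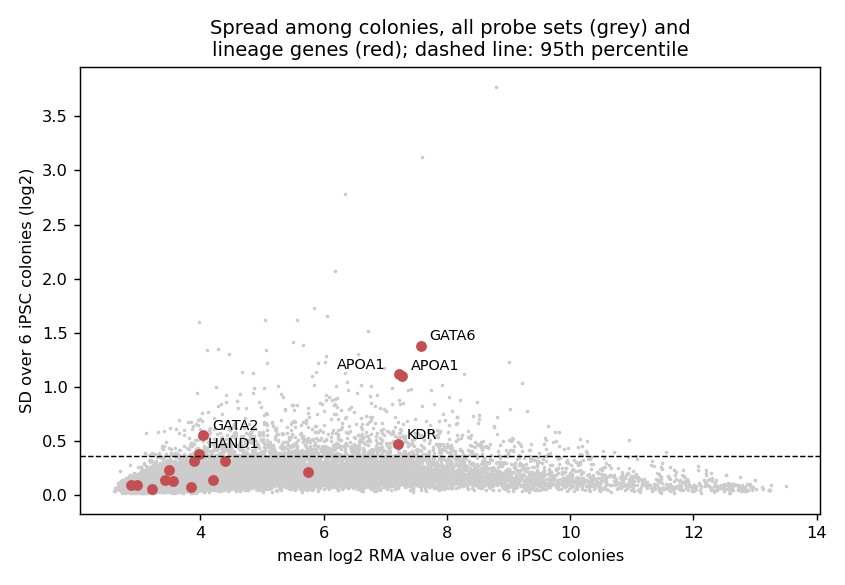
SD over the 6 iPSC colonies against the mean log2 RMA value over them, for all probe sets (grey) and the 17 lineage probe sets (red). The dashed line is the 95th percentile of the SD, and GATA6 and both APOA1 probe sets stand at an SD above 1.

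No lineage gene was called between the colonies of the 2 donors. Of the 17 probe sets 0 were called between KB10973 and KB10460 colonies, where 0.0898% of all probe sets were. An unadjusted limma p under 0.05 was found at 2 of the 17 (11.8%), beside 10.2% of all probe sets. KDR differed by 0.59 (SE 0.24, limma adjusted p 0.46), and GATA2 at 207954_at by 0.20, both higher in KB10973. For GATA6 the mean was 7.22 ± 1.12 in KB10973 colonies and 7.92 ± 1.77 in KB10460 colonies (SD, n = 3 each), a difference of −0.70 (SE 0.88) with a limma adjusted p of 0.86. For APOA1 at 204450_x_at it was 7.14 ± 0.50 in KB10973 colonies and 7.42 ± 1.65 in KB10460 colonies (SD, n = 3 each), a difference of −0.28 (SE 0.73). These differences depended on single colonies. Without colony 1 of KB10460 the difference was −1.72 for GATA6 and −1.15 for APOA1, with limma adjusted p of 0.22 and 0.27, and over all colonies left out in turn it ranged over −1.72 to −0.12 for GATA6 and −1.15 to 0.49 for APOA1, where the positive value was that without colony 3 of KB10460.

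The change on reprogramming was also set against the donor, as the iPSC minus fibroblast difference of KB10973 minus that of KB10460. Here 0 of the 17 probe sets were called, against 2.91% of all probe sets. An unadjusted limma p under 0.05 was found at 1 of the 17 (5.88%), beside 15.2% of all probe sets. That was GATA3 at 209602_s_at, with a difference of −0.60 (SE 0.18) and a limma adjusted p of 0.15. The difference was −1.02 (SE 1.76) for GATA6, −0.19 for APOA1 at 204450_x_at and 0.78 (SE 0.47) for KDR. For GATA6 it ranged over −2.05 to −0.44 as each colony was left out, with −2.05 without colony 1 of KB10460. Each donor had 1 fibroblast array, which was assumed to vary as the colonies did.

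GATA6, APOA1 and KDR had the largest SD over the colonies with each gene read at its highest-mean probe set, and the genes that followed them most closely over the 6 colonies were sought among 391 probe sets with an SD of at least 0.5. The colonies share their donors and the arrays were normalised together, so the correlations describe these arrays only. They were picked as the highest among 391 probe sets over 6 arrays, and such a choice alone can give high values. For GATA6 the closest were CCKBR, CXCR4, CER1, HPGD and KRT19, each at r of 0.98. CER1, a secreted antagonist made by anterior endoderm, had levels of 6.06, 5.44 and 7.12 in KB10973 colonies and 4.89, 8.23 and 8.63 in KB10460 colonies, against 3.45 in KB10973 fibroblasts and 4.15 in KB10460 fibroblasts. The order of the colonies was the same as for GATA6 at its upper end, with colonies 3 and 2 of KB10460 highest. CXCR4, a chemokine receptor used to sort definitive endoderm, varied with GATA6 among colonies at 209201_x_at but was lower in the iPSCs, with 6.26, 4.54 and 6.33 in KB10973 colonies and 4.51, 7.19 and 7.27 in KB10460 colonies, against 8.29 in KB10973 fibroblasts and 9.12 in KB10460 fibroblasts.

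For APOA1 the closest gene was FOXA2, an endoderm factor, at r of 0.98 (210103_s_at), followed by CST2, COX20, HPGD and CXCR4 at 0.85 to 0.87. FOXA2 was low at that probe set, at 3.10 to 4.63 in the colonies. The colonies overlapped the fibroblasts there, at 3.08 in KB10973 and 3.55 in KB10460. For KDR it was RFPL3 at r of 0.98, followed by FZD2 and RFPL2 at 0.97, COL1A2 at 0.93 and the atrial myosin light chain MYL7 at 0.92. RFPL3 (207936_x_at), RFPL2 (207227_x_at) and CST2 (208555_x_at) were read by probe sets of the class that may bind other transcripts. So were CXCR4 (209201_x_at) and, beside GATA6, HPGD (203914_x_at). COL1A2, a fibroblast collagen, had levels of 7.32, 7.06 and 7.84 in KB10973 colonies and 6.21, 7.41 and 7.12 in KB10460 colonies, against 11.88 in KB10973 fibroblasts and 11.27 in KB10460 fibroblasts. The mean of the 8 fibroblast markers was 4.98, 4.95 and 5.14 in KB10973 colonies and 4.62, 4.81 and 4.67 in KB10460 colonies. It was thus highest in the colony where KDR was highest, colony 3 of KB10973. Among the markers, COL1A1, COL1A2 and THY1 were at their highest in that colony. COL3A1, DCN, LUM, PDGFRB and FAP were not, and THY1 was the marker that was higher in the iPSCs. The part of these markers in the KDR levels was not tested.

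**Figure D4:**
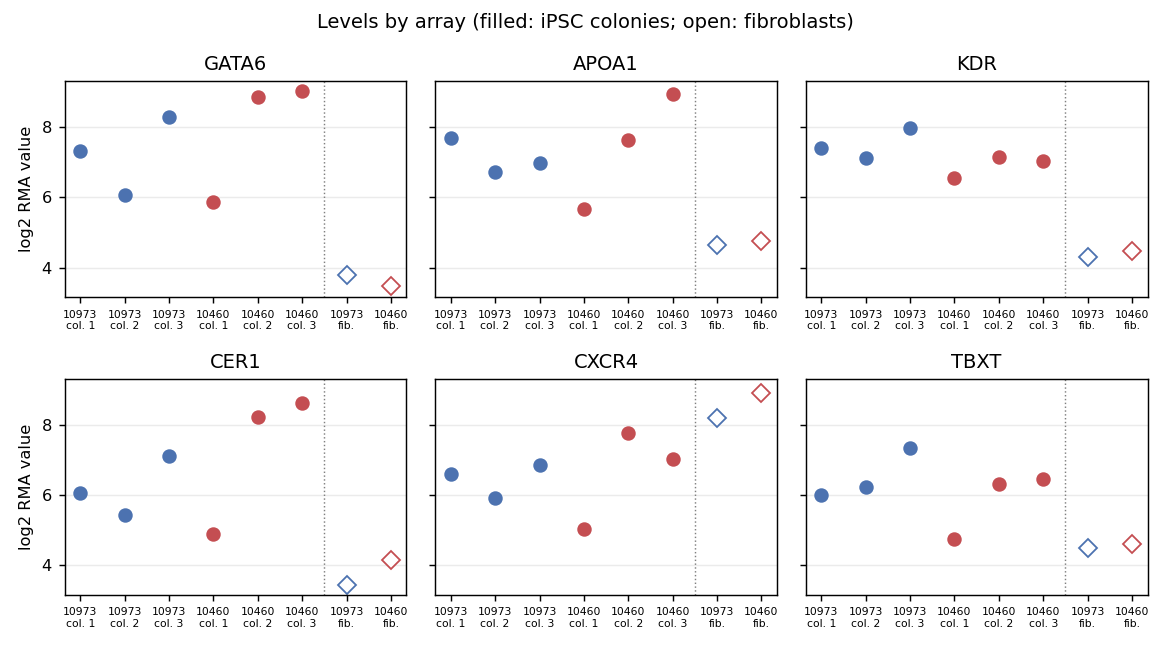
Log2 RMA value on each array for GATA6, APOA1 and KDR and for CER1, CXCR4 (217028_at) and TBXT, with filled points for iPSC colonies and open diamonds for fibroblasts. Colony 1 of KB10460 is the lowest colony in all 6 panels, as it was for 20.4% of all genes. CER1 and CXCR4 were among the genes picked for following GATA6 over these colonies, so their likeness to it is not independent. CXCR4 is the only gene shown whose fibroblast levels lie above every colony.

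Other genes of the same lineages were read at 1 probe set each, that with the highest mean, in 6 lists that held 96 distinct measured genes. Of these 25 were called, beside 26.7% of the 11963 genes on the array (15.2% higher and 11.5% lower). Among 22 measured endoderm and yolk sac genes 3 were higher, 1 lower and 18 not called, with a median difference of 0.15 beside −0.00 over all genes. CER1 rose by 2.93 (SE 0.94, limma adjusted p 0.043), APOE, an apolipoprotein of yolk sac and liver, by 2.82 (SE 0.09), and AFP, the fetal albumin, by 2.08 (SE 0.28). CXCR4 at 217028_at fell by 2.02 (SE 0.60, limma adjusted p 0.031). The calls of CER1 and CXCR4 were lost in 8 and 6 of 18 alternatives, those without either fibroblast array among them.

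In this endoderm list 8 of 22 genes had an SD over the colonies in the top 5% of the array, where 5.93% of all genes did. The lists were likewise chosen with earlier results of these data known, so such shares cannot serve as a test. FOXA2 was not called, with levels at 40284_at of 3.94, 3.69 and 4.13 in KB10973 colonies and 3.43, 4.95 and 5.58 in KB10460 colonies, against 3.20 in KB10973 fibroblasts and 3.37 in KB10460 fibroblasts. Colonies 2 and 3 of KB10460, the colonies with the most GATA6, were again the highest for FOXA2. Other genes of the list had another order. Colony 2 of KB10460 was the lowest colony for AFP, at 5.43, for TTR, at 3.60, and for APOA2, at 3.30. TTR was highest in colonies 3 and 1 of KB10973, at 4.95 and 4.93, and AFP in colony 3 of KB10460, at 6.37. The mean level of the list was 4.51, 4.16 and 4.47 in KB10973 colonies and 4.12, 4.53 and 4.70 in KB10460 colonies, against 3.84 in KB10973 fibroblasts and 4.07 in KB10460 fibroblasts.

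Among 16 measured mesoderm and heart genes 3 were higher, 2 lower and 11 not called, with a median of −0.01, and 7 of 16 were in the top 5% of spread. The cardiac actin ACTC1 rose by 3.37 (SE 0.49), MYL7 by 1.87 (SE 0.41) and TBXT, the brachyury gene of the primitive streak, by 1.63 (SE 0.52, limma adjusted p 0.042), though the TBXT call was lost in 9 of 18 alternatives. The MYL7 call was lost in 2 of 18, with colonies averaged within donor (limma adjusted p 0.062) and without the KB10973 fibroblasts (1.44, limma adjusted p 0.078). TBXT had levels of 6.02, 6.22 and 7.34 in KB10973 colonies and 4.74, 6.33 and 6.45 in KB10460 colonies, against 4.49 in KB10973 fibroblasts and 4.62 in KB10460 fibroblasts. PDGFRA, a growth factor receptor of mesenchyme, fell by 4.02 (SE 0.54), and MEF2C, a muscle factor, fell by 1.66 (SE 0.14). In colony 1 of KB10460 8 of these 16 genes and 7 of the 22 endoderm genes were at their lowest among the colonies, as were 20.4% of all genes on the array. The same was true of 8 of 19 trophoblast and amnion genes, 5 of 11 relatives and partners of the GATA and AP-2 factors, 4 of 20 endothelial and blood genes and 3 of 17 neuroectoderm and neural crest genes.

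**Figure D5:**
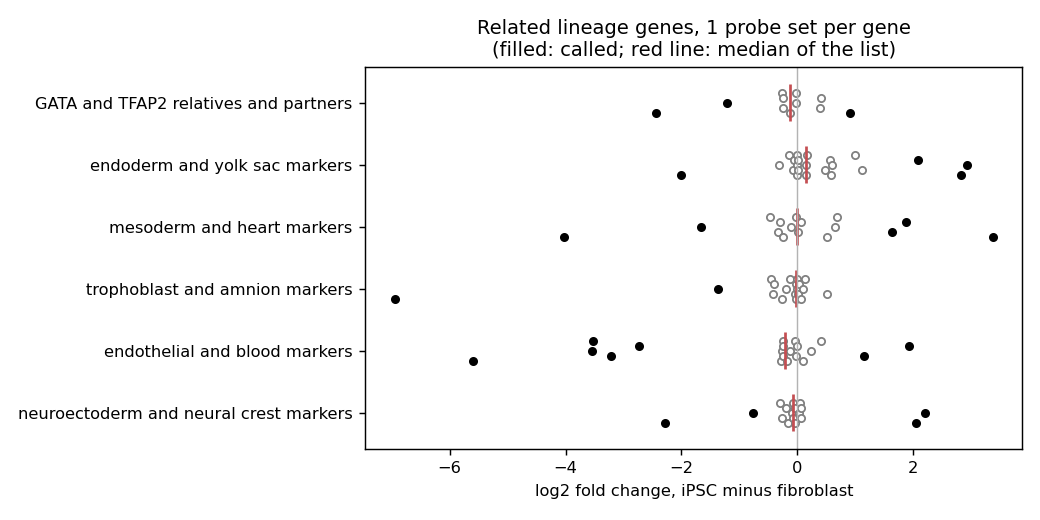
Log2 difference, iPSC minus fibroblast, of each gene in 6 lists of related lineage genes, at 1 probe set per gene. Filled points were called, red lines are list medians, and the medians lie between −0.21 and 0.15.

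Among 20 measured endothelial and blood genes 2 were higher, 5 lower and 13 not called, with a median of −0.21. The receptors TEK and FLT1 rose by 1.93 (SE 0.34) and 1.15 (SE 0.14) beside KDR. Other receptors did not, since ENG fell by 2.74 (SE 0.13), NRP1 fell by 3.22 (SE 0.42), and FLT4, TIE1 and NRP2 were not called. The ligand VEGFC fell by 5.59 (SE 0.10) and its relative VEGFA fell by 3.54 (SE 0.41), while VEGFB was not called. The adhesion molecule PECAM1 fell by 3.52 (SE 0.32). Among 11 measured relatives and partners of the GATA and AP-2 factors 1 was higher, 2 lower and 8 not called, with a median of −0.13. GATAD2A, a subunit of the NuRD complex, rose by 0.91 (SE 0.14). CITED2, a coactivator of AP-2 factors, fell by 1.22 (SE 0.20), and TRPS1, an atypical GATA repressor, fell by 2.43 (SE 0.15). None of these 11 was in the top 5% of spread among colonies.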

How the data were processed

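Total RNA of 8 samples was hybridised to Affymetrix human GeneChip arrays. The authors deposited log2 expression values from the RMA algorithm for 22277 probe sets, which were used as given. Of these 19070 had 1 gene symbol in the platform annotation, 1043 several and 2164 none. The study's methods used limma with a spacings LOESS histogram false discovery rate, for which Benjamini-Hochberg adjustment stood in. All probe sets were fitted, two-sided, with lmFit and eBayes (limma 3.58.1, R 4.3.3), after tests on simulated data. The p-values measure the spread between these samples, and precision is limited by the number of arrays.

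The genes and lists were chosen with earlier results of these data known. All probe sets of the 10 genes were named, with the called genes of each list that had the 3 largest changes in either direction, and the 5 nearest genes of the 3 genes with the largest SD over colonies with each gene read at its highest-mean probe set. FOXA2 at 40284_at, TTR, VWF, MSX1 and APOA2, and the colony levels of AFP, were chosen after their values were seen. So were ENG, NRP1, NRP2, FLT4, TIE1 and VEGFB. Donor pairs the arrays, since colonies and fibroblasts came from the same animal, and colony numbers do not (r of −0.06 to 0.06). Alternatives were a donor block, averaged colonies, array weights, each array left out, median centring, a filter on low values, other fold thresholds, a trended robust eBayes and an estimated share of true nulls.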

Additional observations from a re-analysis of the deposited data

Results flagged for a closer look

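In 3 of the 17 probe sets a single colony stood apart from the other 5 by Dixon's criterion, which chance meets in about 1 of 20 groups. The share of all probe sets on the array that meet it was not counted, so no excess at these genes can be read from this. GATA2 at 209710_at was high in colony 3 of KB10460, at 5.10, with the gap to the nearest colony making up 0.68 of the range. GATA3 at 209603_at was low in the same colony, at 3.16, with a gap of 0.78 of the range, where the colonies spanned 0.37. TFAP2A at 204653_at was low in colony 1 of KB10973, at 3.71, with a gap of 0.63 of the range, although the colonies spanned only 0.21 there.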

How the results depend on the processing

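The 9 calls (4 higher, 5 lower) were also 9 with donor as a replicate block, and 0 probe sets were called between donors with colony number as a replicate block. The count of lower probe sets was 3 with colonies averaged within donor, 3 with a highest log2 value of at least 5, and 2 at a fold over 2. Leaving out each array in turn gave 5 to 9 calls, 1 to 4 higher and 3 to 5 lower. Without the KB10460 fibroblasts 1 probe set was higher, that of KDR. Without the KB10973 fibroblasts 5 were called, 2 higher (GATA6 and KDR) and 3 lower. Differences near 0 changed sign: GATA2 at 207954_at was 0.00722 and TFAP2A at 210669_at 0.0251 after median centring, and over the arrays left out in turn they ranged over −0.0999 to 0.0267 and −0.0609 to 0.0235. For APOA1 at 204450_x_at the donor difference ranged over −1.15 to 0.49 and the contrast of the 2 donors' changes over −1.06 to 0.58. A fibroblast array could not be left out of the change difference, since its donor then has none. The cause of these shifts was not tested.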

Other observations

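Genes of trophoblast and amnion were mostly not called, as were most genes on the array. Over all genes 15.2% were called higher and 11.5% lower. Of 19 measured genes 0 were called higher, 2 lower and 17 not called by limma, with a median difference of −0.02. IGFBP3, an insulin-like growth factor binding protein, fell by 6.95 (SE 0.39), KRT7, a keratin of simple epithelia, fell by 1.36 (SE 0.16), and both are also made by cells other than trophoblast. The mean level of the list was 3.63 to 3.80 in iPSC colonies and 4.12 to 4.29 in fibroblasts. These means include IGFBP3 and were not taken without it. IGFBP3 was at 4.51 to 5.33 in the colonies, against 11.07 in KB10973 fibroblasts and 12.79 in KB10460 fibroblasts. Among 17 measured neuroectoderm and neural crest genes 2 were higher, 2 lower and 13 not called, with a median of −0.07. NES, an intermediate filament of neural progenitors, rose by 2.20 (SE 0.22) and the tubulin TUBB3 by 2.04 (SE 0.14), while the neural crest factor SNAI2 fell by 2.29 (SE 0.34) and SOX9 fell by 0.77 (SE 0.22). The SOX9 call was lost in 6 of 17 alternatives, and its difference was −0.22 without the KB10973 fibroblasts and −1.32 without the KB10460 fibroblasts. The SNAI2 difference was −1.52 without the KB10973 fibroblasts, and its call was lost with colonies averaged within donor (limma adjusted p 0.068).

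Some genes that were not called had a high level in a single colony. VWF, a clotting factor of endothelial cells, was at 5.84 in colony 2 of KB10460. The other 5 colonies lay between 3.94 and 4.35, and neither fibroblast culture exceeded that range. That colony was also the highest for HAND1 and for the homeobox gene MSX1, at 6.28. HAND1 did not meet Dixon's criterion, with a gap of 0.48 of the range, and VWF, MSX1 and APOA2 were not put to it. APOA2, another apolipoprotein of yolk sac and liver, was highest in colony 1 of KB10973, at 5.45, where GATA6 was at 7.33.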
